A study of Mus musculus with 6 samples.

Results

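The genes described here serve 3 linked stress programmes: the heat shock response, the unfolded protein response of the endoplasmic reticulum (ER), and the integrated stress response. They were chosen as a list of 46 symbols, and a gene was measured where an array probe set was annotated with that gene alone. Where several probe sets qualified, the one of highest mean over the 6 arrays stood for the gene. Of the 46 genes, 44 had such a probe set and 42 were bright enough to be tested, among 12927 genes tested in all. The study measured messenger RNA in 2 lines of undifferentiated mouse embryonic stem (ES) cells on Affymetrix expression arrays, with 3 arrays for each line. One line, D4, is heterozygous for Dicer (Dicer +/-), and the other, 27H, has no intact Dicer (Dicer -/-); the series title writes it 27H10. Dicer is the ribonuclease that cuts microRNA precursors. No treatment or stressor was applied to either line according to the labels, and no wild-type cells were among the samples analysed here. Each genotype is represented by a single line, so an effect of genotype and one of the line cannot be told apart. Nothing in the labels tells whether the 3 arrays for a line are separate cultures, and the p-values then measure only the spread between these arrays, which may be technical.

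As background, heat shock factors are transcription factors that bind repeats of a short element before chaperone genes when unfolded protein builds up in the cytosol. In the ER, the sensors IRE1 (Ern1), ATF6 and PERK respond to unfolded protein: IRE1 splices Xbp1 messenger RNA, ATF6 is cut to release a transcription factor, and PERK phosphorylates the translation factor eIF2alpha. The integrated stress response joins PERK with the other eIF2alpha kinases, lowers translation in general and raises that of ATF4, whose targets serve amino acid synthesis, transport and, under lasting stress, cell death. ES cells are known for high levels of many constitutive chaperones. An array of messenger RNA reads the transcript level only, so neither the splicing of Xbp1, the cutting of ATF6 nor phosphorylation was measured.

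Every array had a mean intensity of 500 after trimming 2% at each end, and 56.9% to 60.3% of its probe sets reached an intensity of 32. Intensities are in arbitrary units and cannot be compared between probe sets as transcript levels. Across the tested genes, arrays of a line correlated at 0.967 to 0.973 (Pearson) and arrays of different lines at 0.924 to 0.928. The brighter Dicer1 probe set read 1117, 1124 and 1053 on the heterozygous arrays and 1256, 1132 and 1203 on the null arrays, so it was not lower in the null line. The deleted part of Dicer1 is not given in the labels, so this probe set may lie outside it. The 8 ES cell markers were bright on every array, with summed intensities of 71108 to 72933 in heterozygous and 65378 to 67911 in null cells. The summed level of 8 feeder fibroblast markers ran from 7004 to 7653 and from 7907 to 8097, most of it from Fn1, which ES cells also express. Without Fn1 the sums were 387 to 440.4 and 415 to 553, and Postn was under 32 on every array. Much of the remaining null sum came from Dcn, at 316, 269 and 203 against 18.4, 58.4 and 16.0 in heterozygous cells. Fn1 and Dcn were higher in null cells without overlap, whereas Col1a1, Col1a2, Col3a1 and Thy1 were lower without overlap. Col1a1 and Col3a1 were under 32 on the null arrays. The arrays did not overlap for 57.2% of all genes tested. The 8 primitive endoderm markers summed to 937 to 1433 in heterozygous and 423 to 443 in null cells, much of it from Dab2, and without Dab2 the sums were 331 to 606 and 244 to 299. Of the markers tested, 3 of 8 for ES cells were lower by adjusted p. Among 6 of feeder cells, Dcn was called higher and Col1a1 lower, and Thy1 was lower by adjusted p alone (limma, 0.0305). Dab2 and Gata6 were called lower among 7 of primitive endoderm. Among all genes tested, 24.3% were lower by adjusted p, 7.23% were called higher and 6.2% called lower. Dcn would not have passed the filter without the null arrays, nor Col1a1 without the heterozygous arrays. The filter thus favoured a difference in each, and neither call is support. Gata6 read 20.1, 32.8 and 62.1 on the null arrays, which alone did not meet the filter. Its call is not support either. These marker differences run with the line, as do all differences given here, and their part in those was not tested. In bulk RNA, fewer cells of a type and less RNA per cell cannot be told apart.

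Most stress genes differed little between the lines, and those that differed went both ways. The small heat shock protein gene Hspb8 was the single stress gene called higher in null cells, at 4.39-fold, and the inducible HSP70 gene Hspa1b the single one called lower, at 2.01-fold. Calls required a limma adjusted p below 0.05 together with a change of 2-fold or more, which is 1 on the log2 scale. Of all genes tested, 13.4% were called in either direction, 7.23% higher and 6.2% lower. By adjusted p alone, 8 of the 42 stress genes were higher and 10 lower, which is 19.0% and 23.8%, against 24.5% and 24.3% of all genes. The words rose and fell are kept for genes that passed the adjusted p. Heterozygous and null arrays were fully separated for 21 stress genes (50%), 9 with the null arrays on top and 12 with them below. Among all genes the share was 57.2%, of which 28.3% and 28.9% in these directions.

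The median log2 difference of the stress genes, null minus heterozygous, was 0.03, and the median size of the difference 0.20, against -0.01 and 0.42 over all genes. Their probe sets were also brighter than most: the median log2 intensity per array ran from 11.7 to 11.9 for the stress genes and from 8.78 to 8.87 for all genes tested. The balance of directions depended on the scaling. When arrays were centred on their median probe set, the median of all genes went from -0.01 to 0.14, and 16 stress genes were then higher and 2 lower at an adjusted p under 0.05, Hspa1b and Hsp90b1 being the 2. Hspa4, Hspa8, Hspa9, Hsp90aa1, Hspd1, Dnajb1, Dnajc3 and Shmt2 passed as higher there and not before. For 9 genes that had not passed (Hspa9, Hspb1, Hspe1, Dnaja1, Hspa5, Canx, Pdia3, Atf3 and Asns) the sign of the difference turned under at least 1 other scaling. The 40 uncalled stress genes included Atf6, which reached 2-fold with that centring (1.11) and without heterozygous replicate 1 (1.03), and Hspa1a, which did so without null replicate 3 (-1.01).

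**Figure D1:**
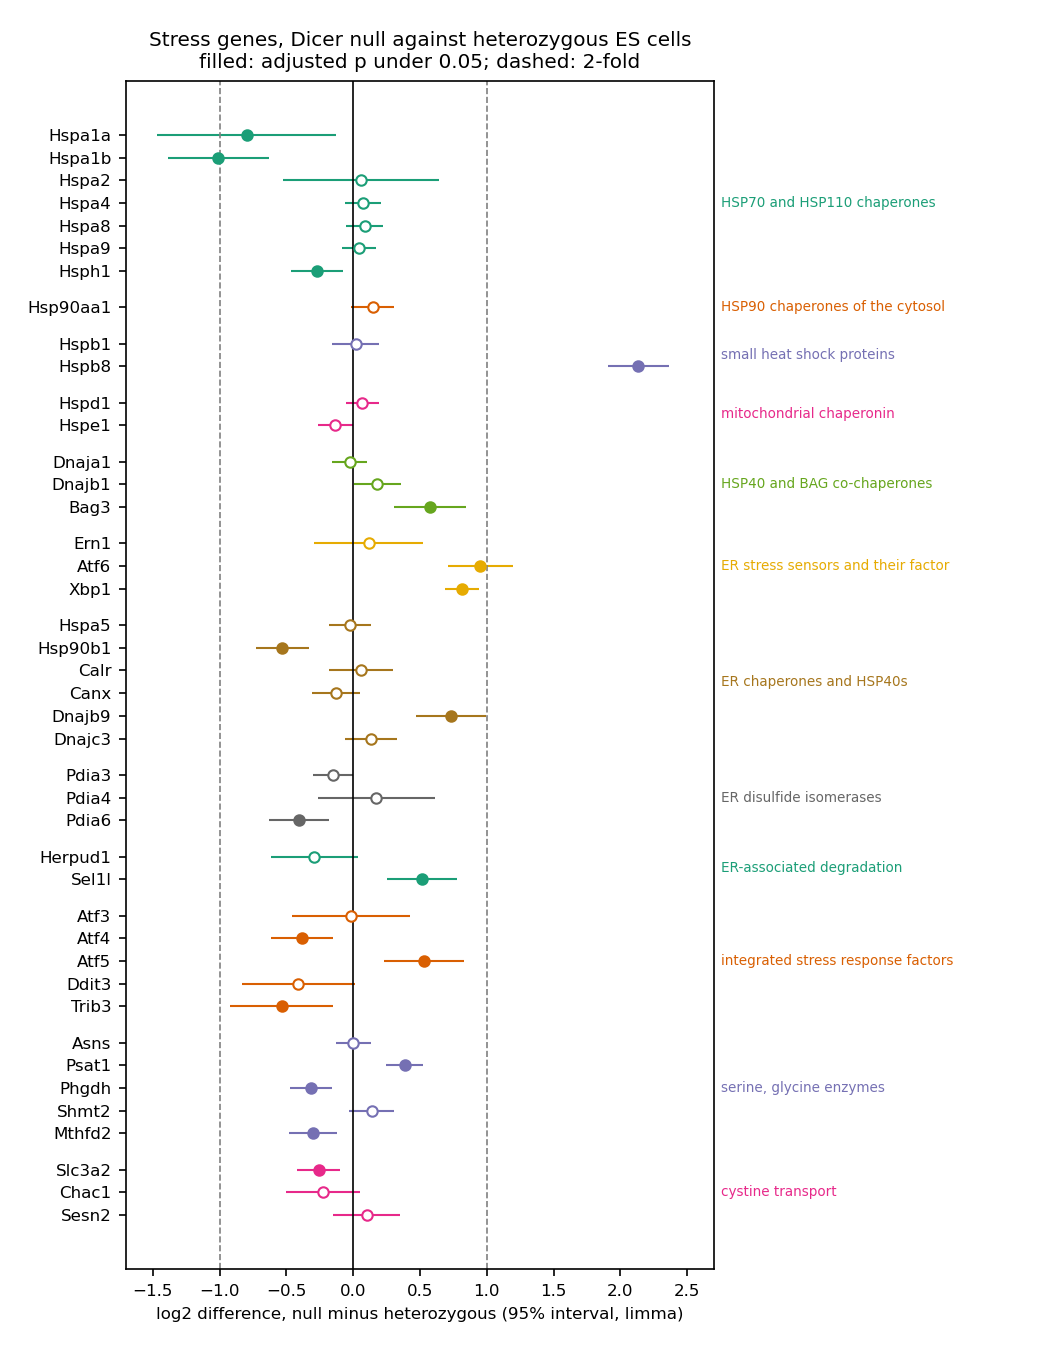
Log2 difference, null minus heterozygous, of the 42 tested stress genes with its 95% interval from limma (3 arrays for each line), grouped by role; filled points passed an adjusted p of 0.05 and dashed lines mark a 2-fold change. Hspb8 lies to the right of the upper line, Hspa1b at the lower line, and most other points lie close to 0.

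Both inducible HSP70 genes fell in null cells, Hspa1a only narrowly and not in every setting. The constitutive HSP70 genes differed by little with the brightest probe set of each. Dimmer probe sets of Hspa4 and Hspa8 were lower, at -1.13 and -0.90. Hspa1b and Hspa1a, which lie next to each other in the gene order of chromosome 17, encode nearly identical stress-inducible HSP70 chaperones, so signal of one can be read by probes of the other. Hspa1b read 1062, 994 and 739.6 on the heterozygous arrays and 468, 359.8 and 569 on the null arrays. No null array reached the lowest heterozygous array, and the log2 difference was -1.01 ± 0.17 (SE, n = 3 arrays each; limma adjusted p 0.000522). The call rested on the size threshold: the difference was -0.91, -0.95 and -0.84 without heterozygous replicate 1, heterozygous replicate 2 or null replicate 2, and -0.86 with arrays centred on their medians, each with an adjusted p under 0.05. The other Hspa1b probe sets lay on either side of it, 1427126_at at -1.24 and 1452318_a_at at -0.72. Hspa1a, from a dimmer probe set, read 166, 154 and 245 in heterozygous and 129, 64.4 and 143 in null cells. Its groups did not overlap either, though null replicate 2 lay far below the others of its line, and its difference of -0.80 passed narrowly (adjusted p 0.0484). It no longer passed without heterozygous replicate 1, 2 or 3 (adjusted p 0.0734, 0.0562 and 0.18), without null replicate 2 (0.161) or with centred arrays (0.0714), and without null replicate 2 the difference was -0.44. The gene also missed without the filter (0.0754), with values under 32 raised to 32 (0.0512) and without an intensity trend (0.133). With means over probe sets the adjusted p was 0.0627, so 9 of 19 settings left Hspa1a short.

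The sequence before Hspa1b is shown because it is the called gene of the heat shock factor targets. It is the 250 bases before the start site in RefSeq's GRCm38.p6, chr17:34959239-34959488, read 5′ to 3′ on the minus strand, with the heat shock element pair in capitals.
Hspa1b: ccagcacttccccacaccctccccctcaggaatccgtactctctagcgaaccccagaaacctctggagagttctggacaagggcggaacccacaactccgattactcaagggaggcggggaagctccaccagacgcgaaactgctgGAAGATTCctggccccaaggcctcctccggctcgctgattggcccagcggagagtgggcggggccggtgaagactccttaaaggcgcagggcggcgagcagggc
The pair searched was GAANNTTC or TTCNNGAA, each of which reads the same on both strands, in the 250 bases before a start. Among all 32851 such windows 12.8% held it, and among all 27025 genes with a window 14.5% did. Of the 40 stress genes with a window, 10 did: Hspa1a, Hspa1b, Hsph1, Hspb1, Hspd1, Hspe1, Dnaja1, Atf5, Asns and Shmt2. The window of Hspa1a differed from that of Hspa1b at 3 of 250 bases and held the same pair, 104 to 97 bases before the start. A match is a description of the letters and not evidence of binding.

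The constitutive chaperones of this family were bright in both lines. Hspa8 (HSC70), the main cytosolic HSP70, read 29783, 28179.5 and 30061 on the heterozygous arrays and 32570.0, 32061 and 28871 on the null arrays. The groups overlapped, and the difference was 0.09 with a 95% interval of -0.05 to 0.22 (adjusted p 0.288); without null replicate 3 it was 0.14 and passed (0.0241), as it did with centred arrays (0.24, 0.00863). Hspa4, an HSP110-type exchange factor, read 18187, 16732 and 16627 in heterozygous and 17810.5, 18892 and 17417 in null cells with its brightest probe set. That difference was 0.07 (-0.06 to 0.21), again with overlapping arrays, but dimmer probe sets of Hspa4 differed, as given further on. The mitochondrial HSP70 gene Hspa9 differed by 0.04 and the testis-enriched Hspa2 by 0.06, with adjusted p values of 0.58 and 0.876. Hsph1 (HSP105), a stress-inducible exchange factor of HSP70, fell slightly, from 7142, 6812 and 6725 to 6128, 6191 and 4880.1, a difference of -0.27 ± 0.09 (SE) with an adjusted p of 0.0239. Null replicate 3 was the lowest array for Hsph1, and without it the difference was -0.16. The gene did not pass without heterozygous replicate 1 (0.0803) or 2 (0.0588), with centred arrays (0.314) or without an intensity trend.

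The heat shock factors themselves were not tested. Hsf1, the main activator of the heat shock genes, and Hsp90ab1, a constitutive cytosolic HSP90, had no probe set annotated with them alone and were not analysed here. Hsf2, a factor active in development, read 52.9, 30.3 and 25.5 in heterozygous and 16.5, 26.5 and 17.8 in null cells, mostly under the filter of 32. Hsp90aa1, the inducible cytosolic HSP90, read 27558, 23453 and 25890.0 in heterozygous and 28659.7, 30189 and 26124 in null cells. The arrays overlapped and the difference was 0.14 (95% interval -0.02 to 0.31; adjusted p 0.133); it passed after quantile normalization (0.0131), without null replicate 3 (0.0247) and with centred arrays (0.30, 0.00483).

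Hspb8 showed the widest difference among the stress genes. It encodes a small heat shock protein that works with the co-chaperone BAG3 in the disposal of misfolded protein by autophagy. Hspb8 read 275, 343 and 299 on the heterozygous arrays and 1312, 1309.8 and 1387 on the null arrays. Every null array was at more than 3 times the level of any heterozygous array, and the log2 difference was 2.13 ± 0.10 (SE, n = 3 arrays each; limma adjusted p 5.58e-08). A second probe set, 1417014_at, read 144, 145 and 139 in heterozygous and 541, 511 and 471 in null cells, a difference of 1.83. The third, 1456434_x_at, read 294, 209.6 and 151 in heterozygous and 288, 385 and 237 in null cells; its arrays overlapped, and it differed by 0.50 with an adjusted p of 0.132 over all probe sets. Hspb1 (HSP25), the other small heat shock protein of the list, read 24585, 23169 and 22736 in heterozygous and 25926, 24976 and 20868 in null cells, with overlapping arrays and a difference of 0.02 (-0.16 to 0.20).

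The window before Hspb8 is shown because this gene had the largest difference; it lies at chr5:116422865-116423114 of GRCm38.p6 and is read on the minus strand.
Hspb8: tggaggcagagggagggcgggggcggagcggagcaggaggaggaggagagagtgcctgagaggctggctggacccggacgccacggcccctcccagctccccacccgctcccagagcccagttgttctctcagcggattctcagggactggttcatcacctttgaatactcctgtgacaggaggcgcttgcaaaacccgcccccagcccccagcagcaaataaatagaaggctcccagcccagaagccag
None of the 5 motifs searched here was found in these 250 bases, which says only that those letters are not in this window.

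Bag3 moved in the same direction as Hspb8 by a smaller amount. Bag3, the HSP70 co-chaperone that partners HSPB8 and a known heat shock factor target, read 382, 420.5 and 421 in heterozygous and 574, 544 and 722 in null cells. The groups did not overlap, and Bag3 rose by 0.58 ± 0.12 (SE; adjusted p 0.00227), short of 2-fold. The HSP40 co-chaperones deliver substrates to HSP70. Among them, Dnaja1 read 12977, 13893 and 13588 in heterozygous and 13815, 13156 and 12741 in null cells with its brightest probe set. The arrays overlapped there, and the difference was -0.03. The dimmer Dnaja1 probe set 1460179_at was lower without overlap, at -0.24 (limma adjusted p 0.0178 over probe sets). Its probe set 1459835_s_at was at -0.19 with overlapping arrays and did not pass. Dnajb1, which is heat inducible, read 3195, 3108 and 2871 in heterozygous and 3785, 3459 and 3166 in null cells. Its difference of 0.18 missed the threshold (adjusted p 0.0829), but its other probe set, 1416756_at, was higher without overlap, at 0.34 (adjusted p 0.00519 over probe sets). Dnajb1 also passed as the mean of both (0.26, 0.0168), with array weights (0.0401), with centred arrays (0.00668) and without null replicate 3 (0.0183).

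The mitochondrial chaperonin genes Hspd1 (HSP60) and Hspe1 (HSP10), which together form the folding chamber of the mitochondrial matrix, lie head to head on chromosome 1 and share the DNA between their starts. Their shared run of heat shock pairs is shown as each gene reads it, with the GAA and TTC units in capitals; both lines are the same 18 bases, chr1:55088059-55088076 of GRCm38.p6, on opposite strands.
Hspd1, 144 to 127 bases before the start: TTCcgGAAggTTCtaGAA
Hspe1, 89 to 72 bases before the start: TTCtaGAAccTTCcgGAA
Hspd1 read 21198, 20114 and 21399.8 in heterozygous and 22195, 22201 and 21339.9 in null cells, a difference of 0.07 (-0.05 to 0.19). Hspe1 read 16908, 15522 and 16191 in heterozygous and 14635, 15408 and 14250.3 in null cells, a difference of -0.13 (-0.27 to -0.0031) with an adjusted p of 0.0848. Neither passed, although the Hspe1 arrays did not overlap, and the call depended on the scaling. With centred arrays Hspd1 passed (0.22, adjusted p 0.00984) and the sign of Hspe1 turned (0.02), whereas after quantile normalization Hspe1 passed as lower (-0.17, 0.00544). The median difference of all tested genes on chromosome 1 was 0.31.

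In the ER branch, transcripts of Atf6 and Xbp1 rose, while that of Ern1 did not pass. Atf6 encodes the membrane-bound transcription factor that is cut in the Golgi under ER stress. Its probe set 1435444_at read 355, 316 and 287 on the heterozygous arrays and 607, 611 and 629.5 on the null arrays. The groups were far apart, and the log2 difference was 0.95 ± 0.11 (SE; limma adjusted p 3.27e-05), just short of 2-fold. The other Atf6 probe sets disagreed: 1456021_at was at 0.88, and 1453288_at read 427, 309.7 and 337 in heterozygous and 382, 393 and 301 in null cells, a difference of 0.01 with overlapping arrays. Xbp1, whose messenger RNA is spliced by IRE1 to make an active factor, read 4833, 4985 and 5064 on the heterozygous arrays and 8890.1, 8416 and 8831 on the null arrays. All null arrays exceeded all heterozygous arrays, by a log2 difference of 0.81 ± 0.06 (SE; adjusted p 8.41e-07). Probe sets 1420886_a_at and 1420011_s_at lay close to it, at 0.95 and 0.93, and the dim 1420012_at was at 0.23 (adjusted p 0.581 over probe sets). Ern1, the gene of IRE1, differed by 0.11 (-0.29 to 0.52).

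Atf6 is on chromosome 1 and Xbp1 on chromosome 11, the chromosomes with the highest median differences of all, at 0.31 and 0.29; the other medians ran from -0.15 to -0.01. Relative to these medians, Atf6 was at 0.65 and Xbp1 at 0.52. Of the other stress genes on these chromosomes, Hspd1, Hspe1, Atf3, Hspa4, Ern1 and Canx, none passed the adjusted p with its brightest probe set. The part of the chromosome in the differences of Atf6 and Xbp1 was not tested.

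Of the 6 ER chaperones, Dnajb9 rose, Hsp90b1 fell and the others did not pass with the brightest probe set of each. Among the ER chaperone and isomerase genes, 6 held the ER stress response element, to which ATF6 and the factor NF-Y bind, in the 250 bases before the start. These elements are shown because they mark the textbook targets of the branch. The motif searched was CCAAT and CCACG with 9 free bases between them, on either strand. It was found in 0.113% of all 32851 windows, or 0.13% of all genes with a window, and in 6 of the 40 stress genes. Each is written from CCAAT to CCACG, whichever strand carries it, with both ends in capitals and positions in GRCm38.p6.
Hspa5, chr2:34772025-34772043, 65 to 47 bases before the start: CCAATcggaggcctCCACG
Calr, chr8:84847075-84847093, 162 to 144 bases before the start: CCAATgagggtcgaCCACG
Hsp90b1, chr10:86705638-86705656, 212 to 194 bases before the start: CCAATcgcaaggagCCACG
Hsp90b1, chr10:86705533-86705551, 107 to 89 bases before the start: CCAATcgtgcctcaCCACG
Canx, chr11:50325800-50325818, 145 to 127 bases before the start: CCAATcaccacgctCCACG
Pdia6, chr12:17266491-17266509, 98 to 80 bases before the start: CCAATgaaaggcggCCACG
Dnajc3, chr14:118937827-118937845, 105 to 87 bases before the start: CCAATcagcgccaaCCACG
The elements of Calr and the second one of Hsp90b1 run against the direction of the gene. With the brightest probe set of each, the 6 genes that carry these elements differed by -0.53 to 0.13. Of these genes 2 passed the adjusted p, Hsp90b1 and Pdia6, both of them lower. Among all genes 48.8% passed in either direction and 24.3% were lower.

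Hspa5 (BiP), the HSP70 of the ER and the usual marker of the unfolded protein response, read 20692, 19197 and 18900.4 on the heterozygous arrays and 20332, 20247 and 17403 on the null arrays. The groups overlapped, and the difference was -0.02 with a 95% interval of -0.18 to 0.14. Hsp90b1 (GRP94), the HSP90 of the ER, read 9203, 8568 and 8378 in heterozygous and 6989, 5851 and 5372 in null cells. It fell without overlap, by 0.53 on the log2 scale (SE 0.09; adjusted p 0.000507), and its other probe set, 1415889_a_at, was at -0.51. Calr (calreticulin), a lectin chaperone of glycoproteins, read 13550.5, 13096 and 11331 in heterozygous and 13919, 14888 and 10893 in null cells, overlapping, with a difference of 0.06 (-0.18 to 0.29). Its membrane-bound relative Canx (calnexin) differed by -0.13 with the brightest probe set (limma adjusted p 0.223, or 0.0448 without null replicate 3). The Canx probe set 1422845_at was lower without overlap, at -0.61 (limma adjusted p 0.000345 over probe sets). Canx also passed as the mean of its probe sets and without probe sets ending in _a_at, _s_at or _x_at.

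Dnajb9 (ERdj4), an ER-resident HSP40 known as a target of spliced XBP1, was the chaperone of this group that rose. It read 943, 966 and 1117 on the heterozygous arrays and 1546, 1487 and 2034 on the null arrays. The groups did not overlap, null replicate 3 being the highest, and the difference was 0.73 ± 0.12 (SE; adjusted p 0.000383). Dnajc3 (p58IPK), an ER co-chaperone also known to inhibit eIF2alpha kinases, differed by 0.13, with an adjusted p of 0.251. Among the disulfide isomerases, which form and exchange disulfide bonds, Pdia6 fell and Pdia3 (ERp57) and Pdia4 (ERp72) did not pass. Pdia6 read 6041, 5480.0 and 5497 in heterozygous and 4874, 4498 and 3575 in null cells. The difference was -0.41 ± 0.10 (SE, limma adjusted p 0.00652). Pdia6 missed the threshold with centred arrays (0.0561) and without an intensity trend. Pdia3 read 8241, 7726 and 7293 in heterozygous and 7102, 7265 and 6569 in null cells, a difference of -0.15 without overlap (adjusted p 0.0877) that centred arrays brought to 0.0029. Pdia4 differed by 0.17 with overlapping arrays.

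Of the genes of ER-associated degradation, which returns misfolded proteins to the cytosol for the proteasome, Sel1l rose and Herpud1 did not pass. Sel1l, the adaptor of the HRD1 ubiquitin ligase, read 770.4, 826 and 723 in heterozygous and 1317, 942 and 1080.4 in null cells. Its arrays did not overlap and it rose by 0.51 ± 0.12 (SE; adjusted p 0.00386). All 5 tested probe sets of Sel1l were higher in null cells, by 0.14 to 0.51. Herpud1 (HERP), a membrane protein of the same complex and one of the strongest ER stress responders, read 334, 462 and 363 in heterozygous and 328, 341 and 274 in null cells. The arrays overlapped and the difference of -0.29 had an adjusted p of 0.128. The window of Herpud1 held the second form of the element, ATTGG and CCACG with 1 free base between them, which shares CCACG with the first. This form was on either strand in 0.0304% of all windows, or 0.037% of all genes with a window.

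A wider list of ER folding and degradation genes also went both ways. Of 26 tested, 10 rose and 8 fell (adjusted p under 0.05), with a median of 0.07. At both thresholds 1 was called, and it was lower, where 7.23% of all genes were called higher and 6.2% lower. The called gene was Derl3, an inducible channel component of ER-associated degradation, which fell from 478 ± 9.39 to 175 ± 6.33 (SD, n = 3), a difference of -1.45. Below 2-fold, the largest increases were Wfs1 (wolframin, 0.90) and Sil1, the exchange factor of BiP (0.79). Genes named after their values were seen were Edem3 (0.58) and Os9 (0.74), which select glycoproteins for degradation and rose, and Syvn1, the gene of HRD1 (-0.58), and the secreted factor Manf (-0.53), which fell. Edem3 is on chromosome 1. Among all 12927 genes, 48.8% passed the adjusted p in either direction.

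**Figure D2:**
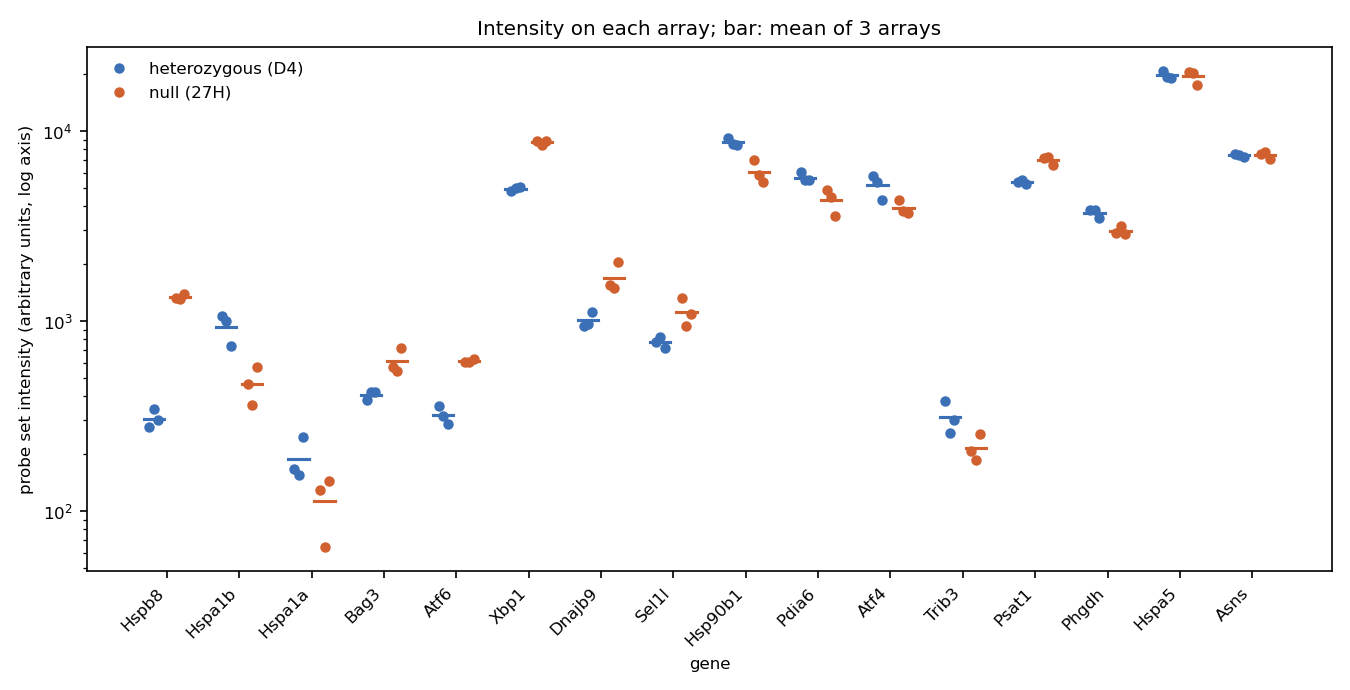
Intensity on every array, on a log axis, for 16 stress genes of the different roles; blue points are the 3 heterozygous arrays, orange points the 3 null arrays and bars their means. Hspb8, Atf6 and Xbp1 separate upward, Hspa1b and Hsp90b1 downward, and the arrays of Hspa5 and Asns overlap.

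In the integrated stress response, Atf4 and Trib3 were lower in null cells and Atf5 was higher. Atf4, the central factor, read 5806, 5358 and 4312 in heterozygous and 4345, 3802 and 3681 in null cells. Heterozygous replicate 3 lay below null replicate 1, so the groups overlapped, and the fall was 0.38 on the log2 scale (SE 0.11; adjusted p 0.011). Atf4 did not pass without heterozygous replicate 1 (adjusted p 0.0529), with centred arrays (0.111) or without an intensity trend. Atf5, a related factor of the mitochondrial stress response, read 350.3, 408 and 291 in heterozygous and 525, 457 and 526 in null cells, with no overlap and a difference of 0.53 ± 0.14 (SE; adjusted p 0.00713). Trib3, a pseudokinase induced by ATF4 and CHOP, differed by -0.54 (limma adjusted p 0.026). Trib3 did not pass without heterozygous replicate 1 (0.115), null replicate 1 (0.0626) or null replicate 2 (0.094). Nor did it pass with centred arrays (0.0861) or without an intensity trend. Ddit3 (CHOP), the factor linked to cell death under lasting ER stress, read 192, 281 and 229 in heterozygous and 148, 212 and 169 in null cells, overlapping, with a difference of -0.41 and an adjusted p of 0.100, or 0.0487 without null replicate 2. Atf3, an early stress-induced factor, differed by -0.01 (-0.46 to 0.43).

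Around these factors, a list of eIF2alpha kinases, phosphatase subunits and ER regulators also divided. Of 14 tested, 6 rose and 4 fell (adjusted p under 0.05), against 24.5% higher and 24.3% lower among all genes. The 1 called gene was Map3k5 (ASK1), a stress-activated kinase, which rose from 185 ± 10.7 to 453 ± 39.6 (SD, n = 3), a difference of 1.29. Of all genes, 7.23% were called higher and 6.2% lower. The largest decreases at the adjusted p were Ppp1r15a (GADD34), the stress-induced subunit of the eIF2alpha phosphatase, at -0.92, and the adaptor Traf2 at -0.91. Among the kinases, named here after their values were seen, Eif2ak3 (PERK) fell by 0.70 on the log2 scale, and Eif2ak2 (PKR), which double-stranded RNA activates and interferon induces, rose by 0.55. Eif2ak4 (GCN2), the sensor of amino acid lack, rose by 0.58. The remaining kinase, Eif2ak1, differed by -0.15 and did not pass (limma adjusted p 0.127).

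The enzymes of serine, one-carbon and asparagine metabolism, which ATF4 is known to induce, went both ways by less than 1.5-fold. Asns (asparagine synthetase) read 7557, 7480.2 and 7325 in heterozygous and 7577, 7708 and 7103 in null cells. The arrays overlapped and the difference was 0.00092 with an interval of -0.13 to 0.13. Psat1, the aminotransferase of the serine pathway, read 5381, 5489 and 5246 in heterozygous and 7157, 7268 and 6622 in null cells and rose without overlap by 0.38 ± 0.06 (SE; adjusted p 0.000345). Phgdh, the first enzyme of the same pathway, went the other way: it read 3831, 3820.5 and 3483 in heterozygous and 2915, 3168 and 2869.5 in null cells, a fall of 0.31 (SE 0.07; adjusted p 0.00321). All 4 Phgdh probe sets were lower, by -0.73 to -0.31. Of the mitochondrial folate enzymes, Shmt2 differed by 0.14 (adjusted p 0.153) and Mthfd2 by -0.30 (0.00954). The Shmt2 probe set 1426423_at was higher without overlap, at 0.31 (limma adjusted p 0.00719 over probe sets). The dimmer 1434204_x_at and 1455985_x_at were at 0.69 and -0.08 with overlapping arrays, and neither passed. Phgdh and Mthfd2 did not pass with centred arrays (0.152 and 0.219), nor did Mthfd2 as the mean of its probe sets (-0.13, 0.254).

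The transport and glutathione genes differed little with the brightest probe set of each. Slc3a2 (CD98 heavy chain), the partner subunit of amino acid exchangers, read 5727, 5671 and 5263 in heterozygous and 4865, 4849 and 4241 in null cells. It fell by 0.26 on the log2 scale (SE 0.07, limma adjusted p 0.0119) with no overlap. Slc3a2 did not pass without heterozygous replicate 2 (0.0507), with centred arrays (0.343) or without an intensity trend. Chac1, an enzyme that breaks down glutathione, read 321, 290.3 and 277 in heterozygous and 254, 249 and 256 in null cells, a difference of -0.23 without overlap (adjusted p 0.158). Sesn2, an inhibitor of mTORC1, read 1921, 1776 and 1833 in heterozygous and 2179, 2217 and 1596 in null cells with its brighter probe set. Null replicate 3 was below all heterozygous arrays and the other null arrays above them. The difference was 0.10, and 0.25 without that array (limma adjusted p 0.0135). The dimmer Sesn2 probe set 1451599_at was lower without overlap, at -0.85 (limma adjusted p 0.000313 over probe sets). Slc7a11 (xCT), the cystine carrier that pairs with Slc3a2, read 10.9, 32.2 and 18.6 in heterozygous and 23.9, 2.97 and 4.62 in null cells and was not tested; 1 of its 6 values reached 32. The composite ATF4 site TGATGNAA, searched on both strands, was in 3.45% of all windows, or 3.91% of all genes with a window. Among the stress genes it was in the windows of Herpud1, Atf3, Asns, Slc7a11 and Chac1. In the Asns window it overlaps the heat shock pair. The XBP1 site TGACGTGG was in 0.563% of all windows, or 0.603% of all genes with a window, and in 0 of the stress genes.

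Other ATF4 targets and amino acid genes went both ways as well. Of 22 tested, 7 rose and 6 fell (adjusted p under 0.05), against 24.5% higher and 24.3% lower among all genes. In each direction 2 were called, where 7.23% of all genes were called higher and 6.2% lower. Jdp2, a repressor of the AP-1 family, rose from 67.0 ± 20.4 to 277 ± 19.3 (SD, n = 3), a difference of 2.09, and Gpt2, the mitochondrial alanine aminotransferase, from 337 ± 4.59 to 1382 ± 56.7, a difference of 2.04. Ddit4 (REDD1), an mTORC1 inhibitor, fell by 1.58 on the log2 scale, and Shmt1, the cytosolic counterpart of Shmt2, from 3441 ± 284 to 1541 ± 63.6, a difference of -1.16, or -0.77 as the mean of its probe sets. Of 16 cytosolic aminoacyl-tRNA synthetases, which charge transfer RNAs and include known ATF4 targets, 6 rose and 2 fell, with differences of -0.31 to 0.54; Gars rose by 0.54 and Aars by 0.43.

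Among other cytosolic chaperones and co-chaperones, another small heat shock protein gene, Cryab, was higher in null cells. Of 27 tested, 6 rose and 6 fell (adjusted p under 0.05), against 24.5% higher and 24.3% lower among all genes; 2 were called, both higher, a share near the 7.23% of all genes called higher. Cryab (alpha B-crystallin), a small heat shock protein like Hspb8, read 394, 358 and 490.1 in heterozygous and 925, 1046 and 1095 in null cells. The arrays did not overlap and the difference was 1.31 ± 0.12 (SE; adjusted p 7.13e-06), from a probe set ending in _a_at; its brightest probe set without such an ending varied too much between arrays to pass (SE 1.62, adjusted p 0.221). Bag2, a co-chaperone that inhibits the ubiquitin ligase CHIP and lies on chromosome 1, rose from 219 ± 44.8 to 443 ± 45.2 (SD, n = 3). Its difference of 1.03 was under 1 without heterozygous replicate 1 (0.92) or 2 (0.98) and without null replicate 3 (0.96). Of 10 genes of mitochondrial protein quality control, 4 rose and 1 fell, with differences of -0.34 to 0.84; Spg7, a subunit of the inner membrane protease, was at 0.84 and Trap1, the mitochondrial HSP90, at 0.66.

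**Figure D3:**
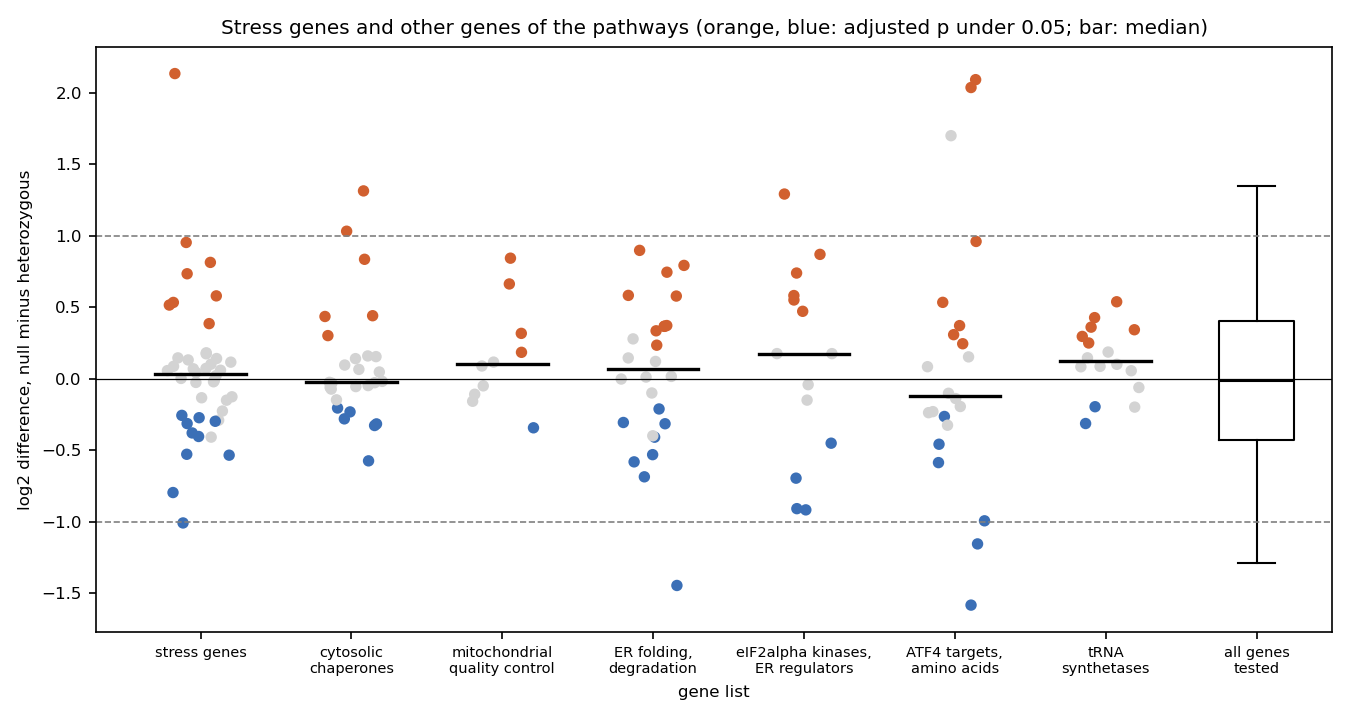
Log2 difference, null minus heterozygous, of each tested gene in the stress gene list and in 6 further lists of the same pathways; orange points were higher and blue points lower in null cells (adjusted p under 0.05), grey points did not pass, bars are medians and the box shows the quartiles of all 12927 genes with whiskers at the lowest and highest 5%. All list medians lie near 0, with points on both sides.

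Several stress genes were read by more than 1 probe set, and for some the reading depended on which was used. The 102 tested probe sets of stress genes included 2 called higher and 4 lower. Of all probe sets, 12.6% were called, 6.34% higher and 6.25% lower. For 10 of 32 genes with several, their differences spread over more than 0.5. Hspa4 was the widest case: its bright 1416146_at was at 0.07, while 1416147_at read 1397, 1276 and 1079 in heterozygous and 599, 590.3 and 522 in null cells, a difference of -1.13 (adjusted p 2.82e-05 over probe sets). The dim 1440575_at read 47.5, 90.6 and 73.5 in heterozygous and 4.25, 5.73 and 32.8 in null cells and was counted among the 4 called lower; it passed the filter through the heterozygous arrays and was under 32 on 2 null arrays, so the size of its difference was not measured. Averaged over the 3 probe sets that reached 32 on every array, Hspa4 was at -0.44, a value computed after the data were seen and not tested. For Hspa8, 3 bright probe sets lay between 0.05 and 0.10 and the dim 1431182_at at -0.90 (adjusted p 0.000153). Sesn2 showed the same pattern, with 1451599_at reading 683, 781 and 645 in heterozygous and 416, 415 and 338 in null cells, a difference of -0.85 (adjusted p 0.000313) against 0.10 for the brighter one. Which transcript forms these probe sets read was not examined.

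**Figure D4:**
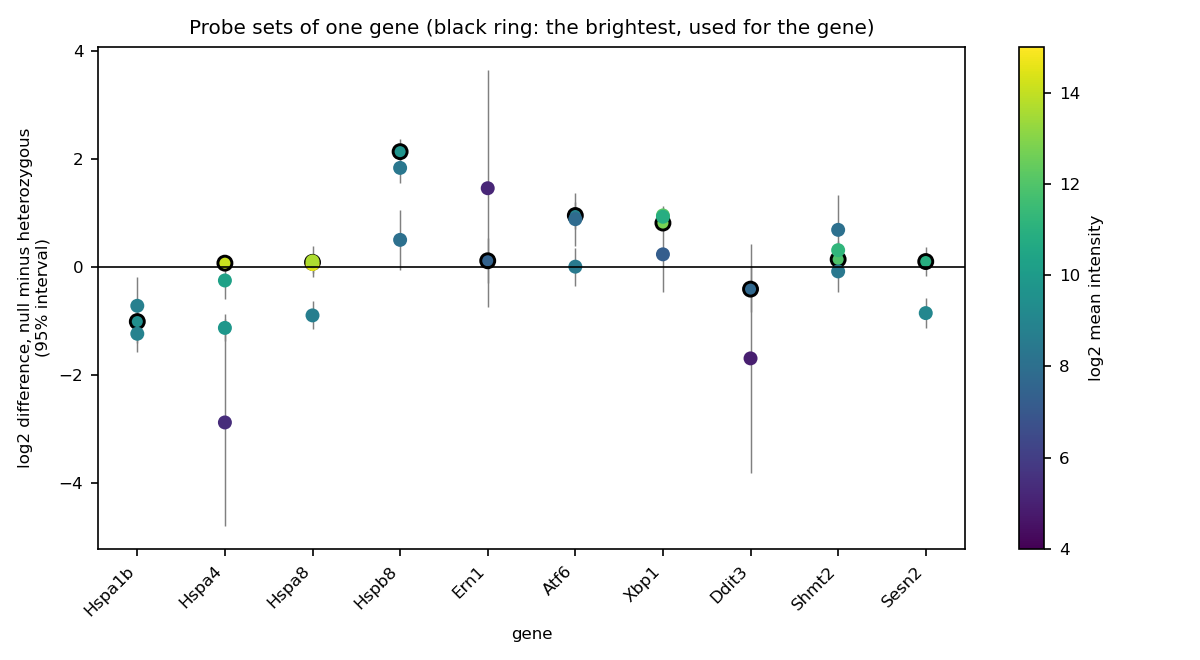
Log2 difference, null minus heterozygous, with its 95% interval for each tested probe set of the 10 stress genes whose probe sets spread over more than 0.5; colour gives the log2 mean intensity and a black ring marks the brightest, which stands for the gene. In Hspa4, Hspa8 and Sesn2 the bright probe set lies near 0 and a dimmer one well below it.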

How the data were processed

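The authors deposited 1 intensity per probe set and array, on a linear scale with a trimmed mean of 500, per the values; GCRMA is the only tool in the submitters' processing notes, and its step is unknown because these values are neither log2 nor quantile normalized. Such scaling equalises the arrays' means and no other part of their distributions. No detection calls were used. The 64 control probe sets were left out; 34945 others carried 1 symbol, 932 several and 9160 none, and 0 symbols changed when updated to GRCm38.p6.

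Log2 values of probe sets that reached 32 on at least 3 of 6 arrays entered limma 3.58.1 (R 4.3.3; group as the only term, intensity trend, two-sided, Benjamini-Hochberg over 12927 genes, or 23377 probe sets). Differences are null minus heterozygous. Members and lists were chosen with earlier results of these data known. All members are named; array values are given for called ones and, by role, the brightest and most significant; other lists give up to 4 called genes or the largest differences. A simulation of this comparison with 12927 genes altered 50 genes at each log2 size and left 12727 unaltered. At a size of 0.75, 58% reached the adjusted p. Calls were made for 84% at 1.5, 72% at 2.5 and 88% at 4, and for 5 unaltered genes. On the real arrays 48.8% of genes passed the adjusted p, a far larger share than was altered in the simulation. The simulated noise was also independent between arrays and of the same size for genes of the same intensity. These rates therefore give neither the power of the real comparison nor its share of false calls. Promoter windows come from RefSeq (40 of 46 genes matched). Alternatives changed the filter, variance prior, scaling, probe set rule, weights, threshold, replicate block and arrays.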

Additional observations from a re-analysis of the deposited data

How the results depend on the processing

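With arrays centred on the median of all probe sets, 2 stress genes were called higher and 0 lower (Hspb8 and Atf6 higher). By adjusted p alone the centred arrays gave 16 higher and 2 lower stress genes. There 8 other pathway genes were called higher, and 6 probe sets were called higher and 2 lower. Without an intensity trend 4 stress genes were lower at the adjusted p alone, and Hspa1a, Hsph1, Pdia6, Atf4, Trib3 and Slc3a2 no longer passed. At 1.5-fold 4 stress genes were called higher and 2 lower. Without probe sets ending in _a_at, _s_at or _x_at 3 other pathway genes were called higher, fewer probe sets being available. Leaving out each array in turn gave 1 to 2 stress genes called higher, 0 to 2 called lower and 6 to 11 lower at the adjusted p alone. For the other pathway genes it gave 3 to 5 called lower, and for the probe sets 2 to 4 called higher and 2 to 5 lower. With array weights, the sign turned for Hspa2 -0.11 and Hspa5 0.014. As a mean over probe sets, the sign turned for Hspa4 -1.05, Hspa8 -0.16, Pdia3 0.031, Asns -0.050 and Sesn2 -0.38. Without probe sets ending in _a_at, _s_at or _x_at, the sign turned for Hspa8 -0.90 and Hspe1 0.016. With arrays centred on the median of the tested genes (added after seeing the data), the sign turned for Hspa9 -0.0056, Hspb1 -0.027 and Asns -0.047. With arrays centred on the median of all probe sets, the sign turned for Hspe1 0.020, Dnaja1 0.13, Hspa5 0.13, Canx 0.027, Pdia3 0.0029 and Atf3 0.14. After quantile normalization, the sign turned for Atf3 0.014. The sign also turned when 1 array was left out, with these ranges: Hspa2 -0.23 to 0.24, Hspb1 -0.041 to 0.12, Dnaja1 -0.058 to 0.00011, Hspa5 -0.061 to 0.051, Calr -0.036 to 0.19, Atf3 -0.12 to 0.11 and Asns -0.023 to 0.036. None of the genes whose sign turned had passed the adjusted p in the main analysis. The cause of these changes was not tested, except that the Hspa4 mean rests on a probe set under 32 on 2 null arrays; over the others it was -0.44 (added after seeing the data). Of 50 genes followed (42 stress genes and 8 called genes of the other lists), 17 kept their sign and their side of the threshold in every setting run. With the replicate number as a block, 1 stress gene was called higher and 1 lower. By adjusted p alone the block gave 9 higher and 12 lower, Dnajb1 (0.0188), Pdia3 (0.0338) and Ddit3 (0.0482) being added. Deviations of arrays with the same number correlated at 0.028 to 0.076, and those of arrays with different numbers at -0.045 to 0.010. Each array correlated best with its own number. The labels do not say what arrays of a number share, and this was not tested. Signal near 32 limits what the dimmest genes, Hsf2 and Slc7a11, can show, and 3 arrays of 1 line per genotype limit all comparisons.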
